A study of Homo sapiens with 2 samples.

Results

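ETV1, ETV4 and ETV5 are the 3 genes of the PEA3 group of ETS transcription factors. They were taken by symbol from the 46732 genes in the deposited gene table, together with all of their 28 annotated transcripts of 168293 in the transcript table (18 of ETV1, 9 of ETV4 and 1 of ETV5). RNA came from T47D cells, a long-established human breast cancer line of luminal type that carries the estrogen receptor, grown as floating spheres on an ultra-low attachment surface. Control cells and cells with a knockdown of CIC were each cultured for 7 days as primary mammospheres, then passaged and cultured for a further 7 days as secondary mammospheres, which were collected. The sources used here do not give the means of knockdown or what the control cells received. Duplicates are mentioned in the series' design, while the labels have 1 sample for each group and the tables hold 1 column for each, so a column may or may not pool duplicates.

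The library of control cells held 47099221 estimated counts and the library labelled CIC knockdown 68420805, which is 1.45 times as many. With 1 library in each group nothing could be tested against a spread between replicates, and every statement compares these 2 libraries. Ratios are of the library labelled CIC knockdown to control, after TMM scaling of the library sizes and with a prior count of 2. Each ratio carries an exact Clopper-Pearson 95% counting interval from the counts without the prior. These intervals and the limits given for counts of 0 cover counting error only. All 10 luminal markers (such as FOXA1, XBP1 and TFF1) were measured, with a summed level of 10246 TPM in control and 10118 in the library labelled CIC knockdown. No basal, leukocyte or endothelial marker reached 100 counts in either library.

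PEA3 factors bind DNA through an ETS domain and act as activators of transcription downstream of receptor tyrosine kinases. ERK signalling both raises their transcription and modifies the proteins, and the COP1 ubiquitin ligase marks the proteins for destruction. CIC (capicua) is an HMG-box repressor that binds short octamers such as TGAATGAA and TGAATGGA at the PEA3 genes, and ERK signalling relieves that repression. The comparison therefore bears on how the PEA3 genes stand in mammospheres when CIC is the target of a knockdown.

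The coding sequences show how far reads of the 3 genes can be told apart, so a stretch of the ETS domain is given first. It is the ungapped stretch of 120 aligned coding bases with the highest identity across all 3 genes. Capitals mark the 95 of 120 bases (79.2%) that are the same in all 3 genes. The sequences are from GENCODE v29 transcripts on GRCh38, all on the minus strand. The stretch is split over 2 exons in each gene, and it lies at chr3:186048831-186052119 in ETV5, chr17:43528714-43529224 in ETV4 and chr7:13896058-13900827 in ETV1.
ETV5: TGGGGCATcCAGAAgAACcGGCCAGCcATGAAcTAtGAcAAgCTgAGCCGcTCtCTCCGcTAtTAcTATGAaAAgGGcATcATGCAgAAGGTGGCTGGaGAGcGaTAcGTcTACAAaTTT
ETV4: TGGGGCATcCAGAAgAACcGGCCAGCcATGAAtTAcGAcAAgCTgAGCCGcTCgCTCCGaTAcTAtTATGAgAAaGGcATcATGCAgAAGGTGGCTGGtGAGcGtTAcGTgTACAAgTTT
ETV1: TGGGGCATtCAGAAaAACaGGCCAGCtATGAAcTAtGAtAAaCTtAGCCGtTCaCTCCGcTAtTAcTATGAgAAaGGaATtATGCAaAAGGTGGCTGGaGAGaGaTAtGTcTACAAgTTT

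Over the whole coding sequence (1530 bases in ETV5, 1452 in ETV4 and 1431 in ETV1), aligned bases were identical at 69.4% between ETV4 and ETV5, 70.1% between ETV1 and ETV5 and 67.3% between ETV1 and ETV4. The longest run shared by 2 of the genes was 33 bases, between ETV4 and ETV5. It begins 1 base before the printed stretch, and the other pairs shared at most 18 and 17 bases. No window of 50 bases occurred in more than 1 of the 3 transcripts compared.

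Of the 3 genes, only ETV1 had entries in the RefSeq table of promoter windows (GRCh38.p14), with 6 windows of 300 bases. The window of the outermost ETV1 start holds a CIC octamer, and its 250 bases before the start (chr7:13991426-13991675, minus strand) are shown because this is the match to the repressor's motif among the windows read. The octamer TGAATGGA is in capitals and begins 125 bases before the start.
ETV1 promoter: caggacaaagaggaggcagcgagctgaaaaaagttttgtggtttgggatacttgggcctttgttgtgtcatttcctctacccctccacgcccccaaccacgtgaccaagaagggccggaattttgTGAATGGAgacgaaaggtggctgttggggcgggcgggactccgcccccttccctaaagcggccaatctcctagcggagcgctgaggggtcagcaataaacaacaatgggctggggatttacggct

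The octamers searched were TGAATGAA, TGAATGGA, TCAATGAA and TCAATGGA, each on both strands. Those ending in GGA overlap an ETS core, GGAA, where an A follows, which is not so at the ETV1 match. TGAATGGA occurred in 1.03% of the 35116 windows in the table and any of the 4 octamers in 3.77%. By gene, 4.62% of 27305 genes held an octamer in at least 1 window, and 21.1% of the 57 genes with 6 windows did. The GGAA core occurred in 95.5% of all windows and in all 6 of ETV1, with 3 to 6 matches each. A match is a description of the letters and not of binding.

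CIC, the target of the knockdown (gene 23152, chromosome 19, 42268537 to 42295796), had 607 counts as control and 872 under the knockdown label. Its level was 1.65 TPM in both, and the log2 ratio was -0.03, a ratio of 0.98 with an interval of 0.882 to 1.09. The 2 libraries therefore did not differ in CIC mRNA beyond counting error. Protein was not analysed here.

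ETV5 and ETV4 stood several-fold higher in the library labelled CIC knockdown, by nearly the same factor, while ETV1 had no counts in either library. ETV5 (gene 2119, GRCh38 chromosome 3, 186046314 to 186109089), an ERK-responsive activator of transcription, had 174 counts and a level of 0.917 TPM (0.786 to 1.06) in control. In the library labelled CIC knockdown it had 1268 counts and 4.68 TPM (4.43 to 4.95). The counting intervals of the 2 levels do not overlap. The log2 ratio was 2.30, or 4.93-fold (4.24 to 5.86), and with counts halved, as if both mates of a read pair had been counted, the interval widened to 3.97 to 6.29.

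ETV4 (gene 2118, chromosome 17, 43527843 to 43546340), the PEA3 factor for which the group is named, gave 81 counts and 0.771 TPM (0.612 to 0.958) in control. It had 557 counts and 3.88 TPM (3.57 to 4.22) in the library labelled CIC knockdown. The log2 ratio was 2.21, or 4.62-fold (3.71 to 6.0, and 3.39 to 6.78 with counts halved). As for ETV5, the library labelled CIC knockdown is the high one and the intervals of the levels are apart. In bulk RNA a higher level in each cell and a larger share of expressing cells cannot be told apart.

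**Figure D1:**
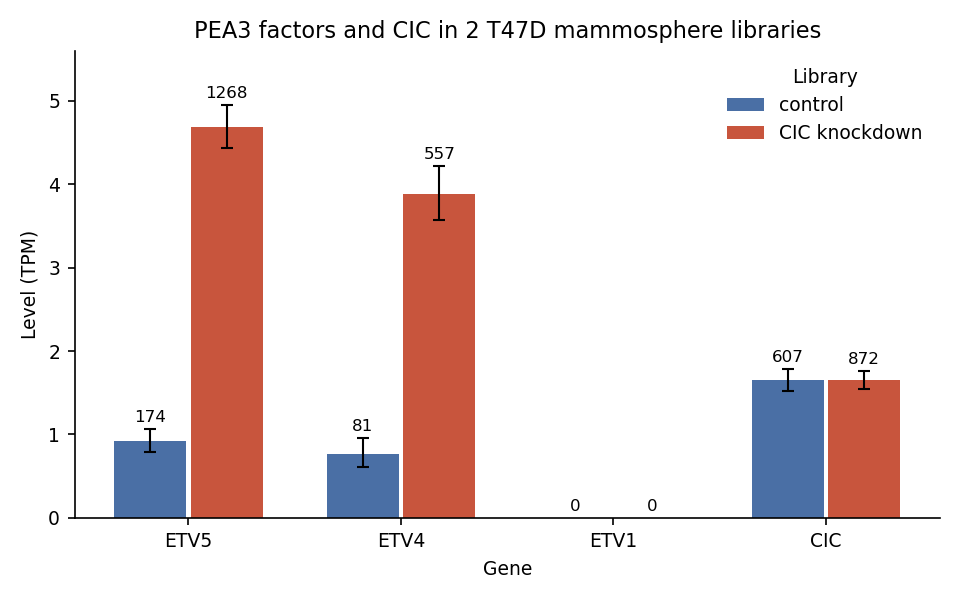
Level in TPM (bars, linear axis from 0) of ETV5, ETV4, ETV1 and CIC in control and the library labelled CIC knockdown, with the estimated count above each bar. Lines are exact Poisson 95% counting intervals; ETV5 and ETV4 stand under 1 TPM in control and at 4.68 and 3.88 TPM in the other library, CIC at 1.65 TPM in both, and ETV1 has 0 counts.

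The proportion of the 2 genes to each other did not differ between the libraries beyond counting error. ETV5 took 68.2% (exact Clopper-Pearson 95% interval 62.1 to 73.9) of the counts of the pair in control and 69.5% (67.3 to 71.6) in the library labelled CIC knockdown. Per length, ETV5 stood at 1.19 times the TPM of ETV4 in control and 1.21 times in the other. The fold of ETV5 over the fold of ETV4 was 1.07 with an interval of 0.789 to 1.41, so counting error alone allows either gene to have the larger factor. Together the pair came to 1.69 TPM in control and 8.57 TPM in the library labelled CIC knockdown.

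Among the 13722 genes with at least 100 counts in 1 library, 161 (1.17%) were at least 2-fold higher in the library labelled CIC knockdown with a counting interval above 1, a rule of size used here in place of a test. Both measured PEA3 genes were among them, as 2 of the 3 members. ETV5 reached 100 counts in both libraries. ETV4, with 81 and 557 counts, did so only in the library labelled CIC knockdown, the deeper one. The minimum can therefore favour genes that are higher there, and ETV4's place by this rule and rank is a description only. Another 132 genes (0.962%) were at least 2-fold lower by the same rule, with no member among them. By the counting interval alone 33.8% of genes were higher and 27.3% lower, so separate intervals were common at this depth and 2-fold ratios were not. ETV5 ranked 25 and ETV4 27 by log2 ratio, and 11 and 13 among the 12064 protein-coding genes that are not readthrough genes.

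Fold changes spread more widely in genes with few counts, so each was also set beside genes whose summed count was within 2-fold of its own. For ETV5 the central 95% of the log2 ratios of 4114 such genes ran from -0.67 to 0.66, and 5 genes, ETV5 included, were as high. For ETV4 the range over 2992 genes was -0.85 to 0.81, and 9 genes, ETV4 included, were as high. The median log2 ratio of all 13722 genes was 0.02.

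**Figure D2:**
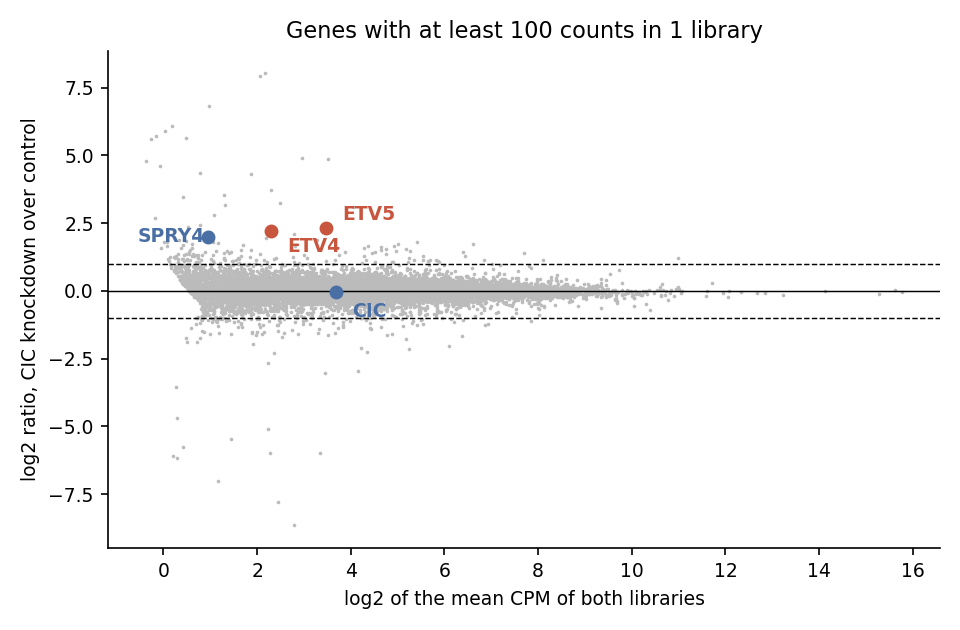
Each point is 1 of the 13722 genes with at least 100 counts, placed by the log2 of its mean CPM (x axis) and its log2 ratio of the library labelled CIC knockdown to control (y axis); dashed lines mark 2-fold. ETV5 at 2.30 and ETV4 at 2.21 lie above the cloud at their level, and CIC lies within it at -0.03.

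The protein-coding genes nearest in log2 ratio were the same 5 for ETV5 and ETV4, with likeness taken as the absolute difference of the log2 ratio in these 2 libraries. They were FOXJ1 (19 and 144 counts, log2 ratio 2.28), a transcription factor of ciliated cells, and DLC1 (21 and 167 counts, 2.35). TMEM241, a membrane protein, had 122 and 768 counts (2.09), and SLC44A4, a transporter of the choline transporter-like family, had 32 and 207 counts (2.09). SPRY4, a feedback inhibitor of receptor tyrosine kinase signalling, had 36 and 214 counts (1.97). With 1 value for each gene, this likeness says only that the ratios are close.

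ETV1 (gene 2115, chromosome 7, 13891229 to 13991425), a PEA3 member that is rearranged in some prostate cancers, had 0 counts in both libraries. This held in each of its 18 transcripts, which use 13 start positions. A count of 0 allows up to 3 counts, or 0.064 CPM in control and 0.0436 CPM in the library labelled CIC knockdown. For the shortest ETV1 transcript, of 4281 bases, that is 0.0151 and 0.0106 TPM. In the library labelled CIC knockdown, the level of ETV5 was 443 times that limit and the level of ETV4 367 times. No fold can be given for ETV1, and whether it differs between the groups was not detectable at this depth. Its promoter octamer, shown above, therefore stands at a gene with no counts in either library.

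Almost all of ETV4's control counts lay on the transcript with the outermost start, and in the library labelled CIC knockdown most lay on transcripts from a start 441 bases downstream. Outermost here means among the deposited ETV4 transcripts. The GENCODE v29 gene reaches farther upstream, to 43579620, and starts there were not analysed. All ETV4 transcripts run on the minus strand. NM_001079675, which starts at chromosome 17 position 43546340, had 75 counts in control and 189 in the other, a ratio of 1.70 (1.31 to 2.28). That was 92.6% (84.6 to 97.2) of ETV4's counts in control and 33.9% (30.0 to 38.0) in the library labelled CIC knockdown. The start at 43545899 was assigned 0 counts in control and 306 in the library labelled CIC knockdown, or 54.9% (50.7 to 59.1). By the exact interval, the 0 allows up to 4.45% of the gene's control counts there. Against a floor of 3 counts in control, taken as exact, the 306 counts are 69.6-fold higher. The lower end of the 95% counting interval is 56.2-fold. These limits hold only if the assignment of counts to starts is exact. Only 39 of the 2218 bases of NM_001986 (1.76%), which begins at this start, were its own among the rebuilt models with counts, so the limits are not bounds on use of the start. The interval of the first start's share is far below its control value, and the gene's total is the part that does not depend on this division.

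The 306 counts were split between NM_001986, with 160, and NM_001369368, with 146, which is 15 bases shorter. A further start at 43545656 (XM_024450644) had 0 and 1 counts. The transcripts with counts at the 2 upstream starts are of nearly equal length. Of these, NM_001079675 and NM_001986 have GENCODE exons and carry the same coding sequence of 1452 bases, since their first exons are noncoding. The exons of both, and of NM_001261439 described below, were rebuilt from GENCODE v29 and gave the deposited transcript lengths. NM_001369368 was not rebuilt, so its coding sequence was not compared.

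NM_001261439 starts within the gene, 15905 bases downstream of the outermost start, at 43530435. It had 6 counts in control and 61 in the library labelled CIC knockdown, a ratio of 5.67 (3.01 to 19.6), and took 7.41% (2.77 to 15.4) and 11.0% (8.48 to 13.8) of ETV4's counts. These shares overlap in their intervals. It has 5 exons against 13, and its 621 coding bases are the last 42.8% of the full coding sequence. All 120 bases of the ETS stretch printed above are among them. Without this transcript ETV4 held 75 and 496 counts, with a ratio of 4.44 (3.53 to 5.83). The remaining 4 ETV4 transcripts had 0 counts in both libraries.

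**Figure D3:**
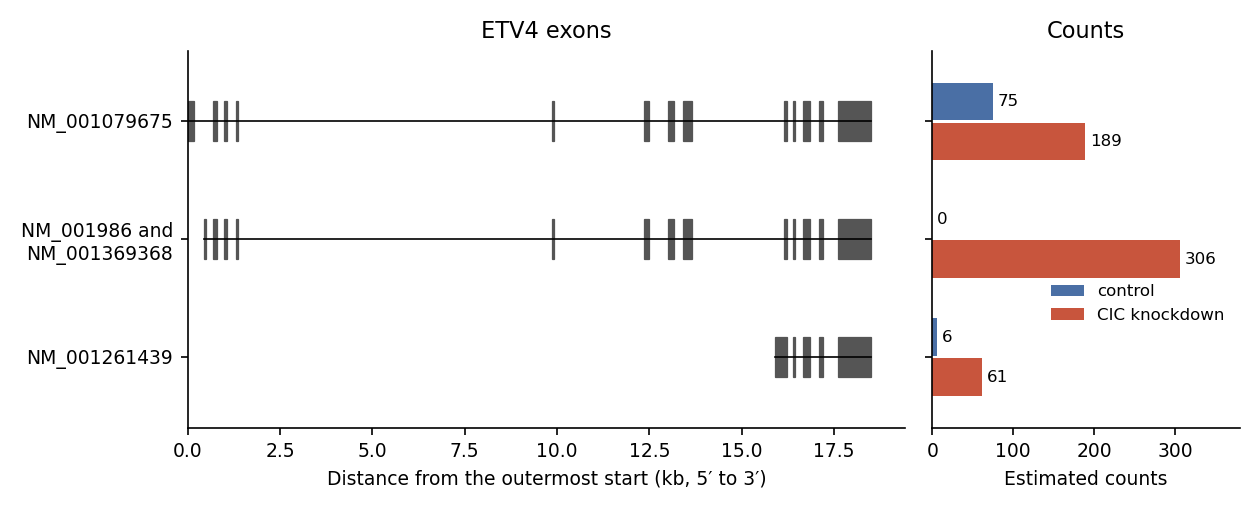
Left, exons (blocks) and introns (lines) of ETV4 transcripts by distance in kb from the outermost start of the deposited transcripts. The model drawn for the middle pair is NM_001986. Right, estimated counts of each transcript or pair in the 2 libraries: 75 and 189 for the outermost start, 0 and 306 for the start 441 bases downstream, and 6 and 61 for the start within the gene.

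The division between these starts rests on few bases. Among the models rebuilt from GENCODE that had counts, only 156 of the 2335 bases of NM_001079675 (6.68%) and 39 of the 2218 bases of NM_001986 (1.76%) were in no other, against 254 of the 1571 bases (16.2%) of NM_001261439. The counting intervals do not include the error of dividing reads among transcripts, and the reads at the first exons were not analysed here. ETV5 has a single annotated transcript, NM_004454, of 4082 bases, which held all of its counts in both libraries, so no such division entered its value. No assembled splice variant or assembled transcript outside genes in the deposited lists overlapped ETV1, ETV4 or ETV5.

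Genes on the other strand overlap ETV4 and ETV5. DHX8, an RNA helicase of splicing, runs on the plus strand into ETV4, and a GENCODE exon of it (chr17:43536412-43536498) shares 54 bases with an ETV4 exon. The DHX8 transcript that reaches into ETV4, NM_001322219, held 282 and 461 counts. Its ratio was 1.11 (0.959 to 1.30). The division of DHX8 counts among its transcripts differed much between the libraries: NM_001322221 had 12 and 1500 counts and NR_136226 had 38 and 0, both named after their values were seen. The part of DHX8 reads in the ETV4 ratio was not tested. ETV5-AS1 (chr3:186079170-186080947) lies antisense inside ETV5 and was not analysed here. The library kit keeps the strand, but whether the counting used it is not stated, so antisense reads cannot be told apart from those of ETV5.

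All but 1 of the measured neighbours of ETV4 and ETV5 were inside 2-fold. Within 500 kb of ETV4, 9 of 41 neighbouring genes had at least 100 counts, with log2 ratios from -0.18 to 0.51, and none was past the rule of size in either direction. They include DHX8 (2325 and 3721 counts, log2 ratio 0.13), the autophagy receptor gene NBR1 (5544 and 7179, -0.18) and the phosphatase gene DUSP3 (2149 and 3498, 0.15). Near ETV5, 6 of 17 neighbours were measured. The nearest measured genes on either side were TRA2B, a splicing regulator (7421 and 12350 counts, 0.18), and TBCCD1, a protein linked to the centrosome (811 and 1571 counts, 0.40). Of ETV5's neighbours under 100 counts, DGKG, which lies nearer than TBCCD1, was higher (4 and 26 counts, interval 1.54-fold to 17.5-fold). LOC100287402 was lower (11 and 4, 0.0576-fold to 0.837-fold). Both were named after their values were seen. The one neighbour of ETV5 past the rule of size, IGF2BP2, was chosen after its values were seen: this gene of an RNA-binding protein had 24 and 256 counts, a log2 ratio of 2.78 and an interval of 4.78-fold to 11.6-fold. Near ETV1, none of 9 neighbours had more than 1 count in either library.

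Within the ETS family, ETV5 and ETV4 ranked higher in the library labelled CIC knockdown; no other measured member was 2-fold apart. Of 28 ETS genes, 22 had a count and 6, ETV1 among them, were at 0 in both libraries. ETV5 ranked 16 and ETV4 17 by TPM in control, next to ETV6 at 0.945 TPM, a repressor of the family, whose counting interval (0.835 to 1.07) overlaps those of both. In the library labelled CIC knockdown they ranked 12 and 13, between ELF5 at 6.32 TPM (5.93 to 6.74) and ELF4 at 2.63 TPM (2.44 to 2.82), with no overlap of the intervals. The PEA3 genes' share of the summed TPM of the family was 0.776% in control and 3.86% in the other. The epithelial ETS factor SPDEF stood highest in both, at 51.0 and 58.2 TPM.

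The other 15 ETS genes with at least 100 counts had log2 ratios from -0.70 to 0.46, with a median of 0.03. None was past the rule of size, while 5 were higher and 6 lower by their counting intervals, against 33.8% and 27.3% of all genes. The ones farthest from 0 were ELF2 (2532 and 2282 counts, log2 ratio -0.70), ETS2 (2153 and 2148, -0.55), ERF, an ERK-regulated repressor (820 and 1651, 0.46), and ELF5, a luminal progenitor factor (885 and 953, -0.44). Summed over the 25 non-PEA3 genes, the family came to 215.9 TPM in control and 213.4 TPM in the other. ERG, with 5 and 42 counts, and ETV3L, with 0 and 22, were higher by interval under the knockdown label but under 100 counts. The interval of ERG (2.27-fold to 18.6-fold) and that of ETV3L (from 3.74-fold, with no upper end) include the ratios of ETV5 and ETV4. ETV2, with 34 and 26, was lower by interval and also under 100 counts; these 3 and no other ETS genes under 100 counts had intervals on 1 side of 1, and they were chosen after their values were seen.

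**Figure D4:**
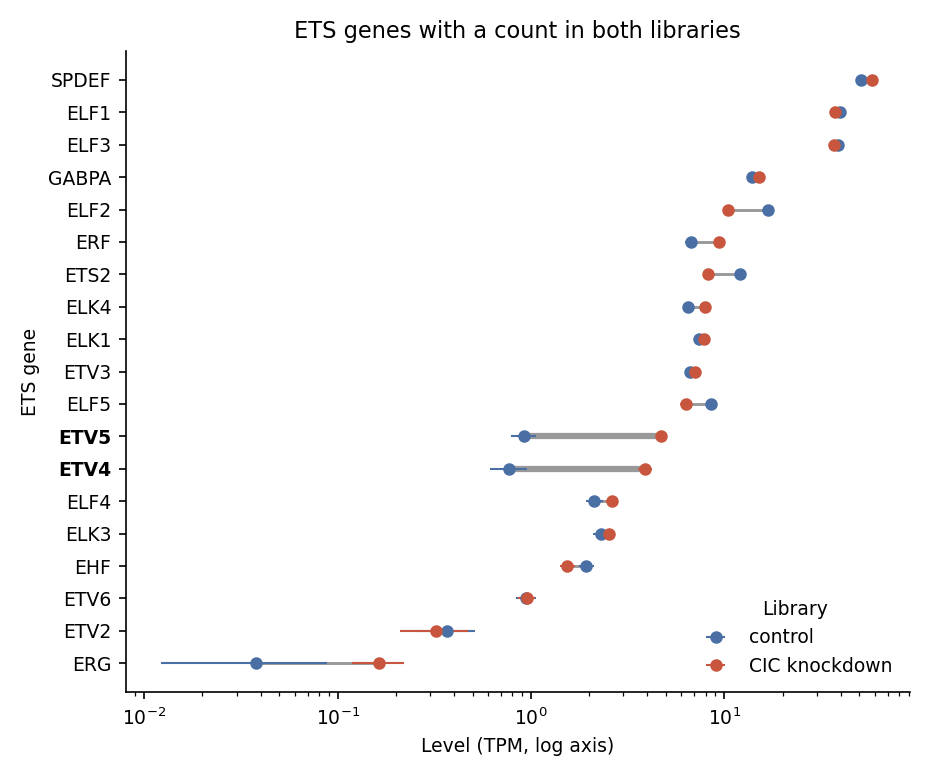
Level in TPM (log axis) of the ETS genes with a count in both libraries, ordered by the library labelled CIC knockdown; points are the 2 libraries and lines through them exact Poisson 95% counting intervals. The thick bars of ETV5 and ETV4 span from under 1 TPM to 4.68 and 3.88 TPM, and those of the other ETS genes with at least 100 counts are short.

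Genes that CIC is known to repress beside the PEA3 factors were more often higher than lower. The measured ones had smaller ratios than ETV5 and ETV4, though the interval of SPRY4 includes both. Of 16 such genes, 13 were measured: 8 were higher, 2 lower and 3 neither by counting interval, and 4 were past the rule of size upwards and none downwards. Over all genes 33.8% were higher and 27.3% lower by interval, and 1.17% and 0.962% were past the rule of size. The list's median log2 ratio was 0.50 against 0.02 for all genes. SPRY4 (36 and 214 counts, interval 2.84-fold to 5.94-fold) was nearest to the PEA3 pair. SHC3, a signalling adaptor, had 68 and 275 counts (log2 ratio 1.44), and the Ras inhibitors SPRED3 and SPRED1 had 33 and 114 (1.20) and 578 and 1750 (1.04). The ratios of ETV5 and ETV4 were above those of all 13 measured genes. DUSP5 (491 and 613 counts, log2 ratio -0.23) and EPHA4 (2299 and 3046, -0.15) were the 2 lower by interval. FOSL1, under 100 counts with 7 and 40, was higher, and its interval (1.73-fold to 10.3-fold) includes the ratios of ETV5 and ETV4. DUSP5, EPHA4 and FOSL1 were named after their values were seen. SPRY4, SHC3 and SPRED3 reached the minimum count for a measured gene only in the library labelled CIC knockdown, the deeper one. SPRED1 reached it in both. The minimum can therefore favour genes that are higher in that library, in this list and among all genes. The list was also chosen with earlier results of these data known. Its tally and median describe the listed genes and are not a test of repression by CIC.

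Upstream of the PEA3 factors, the receptors and the ERK cascade were all inside 2-fold. All 20 genes of the list were measured, 12 of them higher and 2 lower by interval, against 33.8% and 27.3% of all genes, and the median log2 ratio was 0.10 against 0.02. The receptors FGFR4 (223 and 559 counts, 0.77), IGF1R (4255 and 9794, 0.65), FGFR3 (994 and 1997, 0.45) and FGFR1 (428 and 772, 0.30) had the largest log2 ratios. Each of these 4 receptors was higher under the knockdown label, by less than ETV4 or ETV5.

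The genes for turnover of PEA3 proteins gave a median of -0.03 over 11 measured, with 3 higher and 5 lower by interval (33.8% and 27.3% of all genes) and none past the rule of size. TRIB2, a pseudokinase of the Tribbles family that binds COP1, was just inside 2-fold with 1162 and 854 counts (log2 ratio -0.99). CUL4B, a ligase scaffold (4296 and 5278 counts, -0.25), DET1, a COP1 partner (604 and 744, -0.25), and TRIB3 (4988 and 6295, -0.22) followed. Of 14 coactivators and modifying kinases, all measured, 3 were higher and 3 lower by interval, none past the rule of size, with a median of 0.02, that of all genes. The kinase genes RPS6KA1 (931 and 1780 counts, 0.38) and PRKACA (188 and 348, 0.33) were higher and PRKACB (767 and 971, -0.21) lower, and MED25, the Mediator subunit that PEA3 factors contact, had 507 and 824 counts (0.15).

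Of 26 genes reported elsewhere as targets of PEA3 factors, 13 were measured, and 5 had 0 counts in both libraries. By interval 3 of the measured genes were higher and 4 lower, near the 33.8% and 27.3% of all genes. None was past the rule of size in either direction, and the median log2 ratio of the measured genes was 0.05. SNAI1, a repressor of epithelial genes (55 and 115 counts, 0.50), was higher. The urokinase gene PLAU (156 and 175, -0.38) and its receptor gene PLAUR (144 and 151, -0.48) were lower, and ICAM1, an adhesion molecule, had 157 and 269 counts (0.22) with an interval of 0.956 to 1.43. Among the listed genes under 100 counts, chosen after their values were seen, TWIST1 (0 and 17 counts) and MMP13 (0 and 8) were higher by interval, and their intervals include the ratios of ETV5 and ETV4. MMP14 (22 and 0), MMP1 (6 and 0), BCL6B (6 and 0) and CCND2 (5 and 0) were lower by interval.

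**Figure D5:**
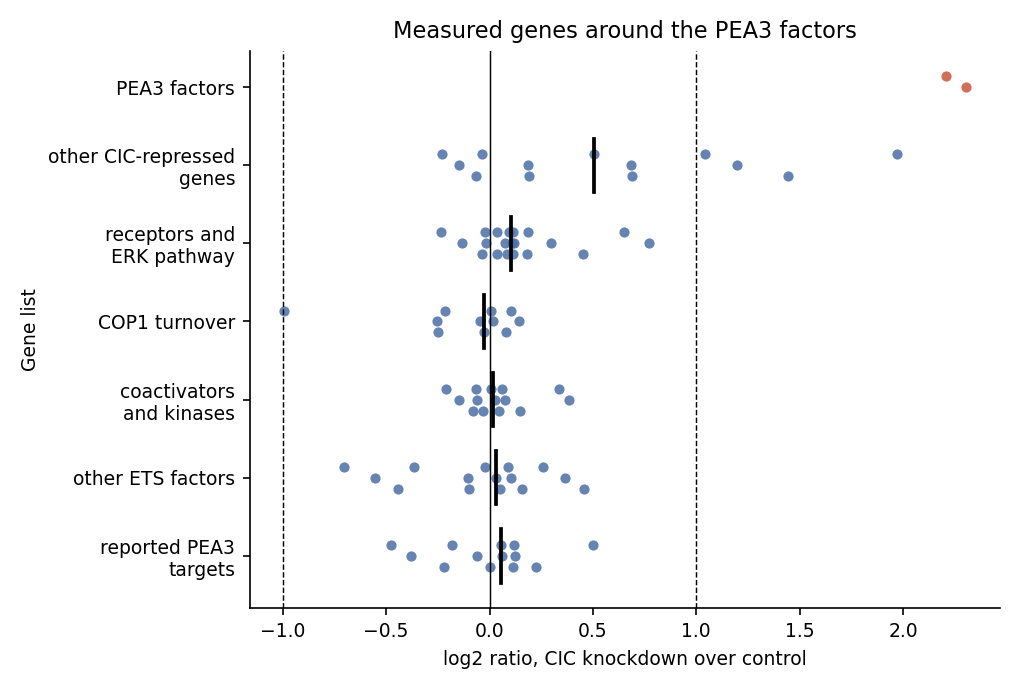
Log2 ratio (x axis) of each measured gene, 1 point each, in the PEA3 group and the 6 gene lists around it (y axis; vertical offsets only separate points), with a bar at each list's median and dashed lines at 2-fold. The PEA3 points at 2.21 and 2.30 lie to the right of every other point, and only the CIC-repressed list has points beyond 2-fold.

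Markers of other cells were read beside these values. Of 6 stromal markers 3 were measured: COL3A1 had 2384 and 8415 counts (log2 ratio 1.27), COL1A1 58 and 168 (0.96) and LUM 550 and 432 (-0.90), while COL1A2 and PDGFRB were at 0 in both libraries. The summed level of the stromal list was 14.1 TPM in control and 26.0 TPM in the library labelled CIC knockdown. The basal list came to 1.88 and 1.70 TPM, the leukocyte list to 0.0409 and 0.103 TPM and the endothelial list to 0.074 and 0.155 TPM. The part of such cells, or of the depth difference, in the ETV4 and ETV5 ratios was not tested.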

How the data were processed

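RNA-seq tables of 2 libraries were used. Per the submitters' processing notes, which give no versions, the tools named are StringTie, HISAT2 and Trimmomatic and the builds hg38 and GRCh38. The deposited estimated counts, FPKM and TPM were made by the authors for each gene and transcript, per the file headers. Among transcripts with a count, over 99.9% of deposited counts lay at most 1 above the product of FPKM, length and a constant, within 0.01, the pattern of a coverage-based count rounded up. Columns marked C were taken as control, the only other sample; 0 sample columns were left unused.

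Counts were scaled with edgeR 4.0.16 (TMM 0.995 and 1.00) in R 4.3.3, with DESeq2 1.42.0 size factors as an alternative; log2 ratios used a prior count of 2. Genes with at least 100 counts in 1 library were called measured. The ratio and interval were tested on simulated Poisson counts, the error that the interval assumes. That check does not cover spread between replicates or the error of dividing reads among transcripts. GENCODE v29 spans overlapped the files' spans for 99.9% of 31143 shared names.

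Named genes were the members and their transcripts with a count, CIC, up to 4 measured members of each list with the largest absolute log2 ratio and any past the rule of size, the nearest measured neighbour on each side within 500 kb, and the 5 coding genes nearest in log2 ratio to ETV5 and to ETV4. Some neighbours are not named. The members and the 11 gene lists were chosen with earlier results of these data known. Whether reads or fragments were counted is not stated, and PCR copies are not independent molecules.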

Additional observations from a re-analysis of the deposited data

How the results depend on the processing

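The log2 ratio of ETV5 ran from 2.21 to 2.32 and that of ETV4 from 2.16 to 2.22 over 10 alternatives each: DESeq2, upper-quartile or total-count scaling, totals without 7SL, 7SK and ribosomal RNA, TPM or FPKM with a pseudocount of 0.1, halved counts, the table with assembled transcripts, a prior count of 0.5 and summed transcript counts. The difference in the share of ETV4's NM_001079675 ran from -58.7 to -58.5 percentage points over 3 alternatives. All 3 take the deposited division of reads among transcripts as given, so they cannot show whether that division holds. ETV5 has 1 transcript, so its difference of 0 was fixed in advance. The number of genes past the rule of size was 293. It moved to 444 with the table that adds assembled transcripts, to 507 with a minimum of 50 counts and to 2288 with no minimum; the other 8 alternatives gave 248 to 299. ETV1 gives no ratio at 0 counts. No paired analysis was possible because each group has 1 library. Depth limits ETV1, the ETV4 start sites with 0 control counts and the 13 reported targets under 100 counts.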
